A study of Mus musculus with 16 samples.

Results

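The gene group described here holds the cathepsins and the vacuolar proton pump. Members were Ensembl protein-coding genes of the deposited gene annotation whose name begins with Cts followed by 1 to 3 further letters or digits and nothing else, or begins with Atp6v0, Atp6v1 or Atp6ap. The rule gave 48 genes of 22159 protein-coding genes and of 50578 gene models in all. Of these, 23 were cathepsin genes and 25 were pump genes, and the families are given apart. All 48 gene IDs carried the same symbol in the table of current symbols.

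Macrophages were grown from mouse bone marrow over 7 days with the growth factor M-CSF at 50 ng per ml, and 16 libraries were made from them. RNA-seq of wild-type C57BL/6 cells covered 3 libraries with lipopolysaccharide (LPS, a cell wall component of Gram-negative bacteria) and 3 untreated libraries. Ribosome profiling of the same genotype covered 2 with LPS and 2 untreated. All ribosome profiling titles carry the label CHX, a common short form of cycloheximide, so untreated means without LPS there. The LPS time is not given per library for RNA-seq and ribosome profiling. RiboTag libraries, from LysM-Cre x RiboTag cells in which ribosomes of LysM-expressing cells carry an HA tag and are pulled down with an anti-HA antibody, numbered 2 without LPS, 2 after 6 h with it and 2 after 24 h. The only file used here places genes, transcripts, exons and coding sequences on the mouse genome, build mm10. It has no value per library, so the LPS response of these genes, library depth and the cell type's marker genes were not analysed here, and no gene is described as changed. Gene models are not replicates, and shares are given as a description, with no p-value. They are set beside those of all protein-coding genes or, for promoters, of all windows in the RefSeq promoter table.

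Cathepsins are proteases of lysosomes and related granules, and they fall into cysteine, aspartic and serine classes by the residue that cuts the substrate. Most work best at acid pH. The vacuolar proton pump supplies that acid: its V1 sector in the cytosol splits ATP, and its V0 sector carries protons across the membrane into the organelle. In macrophages both families act on material taken up by phagocytosis, and cathepsin S trims the invariant chain of MHC class II.

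The short stretches that follow were read from the RefSeq promoter table, build GRCm38.p6, and each is written 5′ to 3′ along the gene. The table's windows run from 250 bases before to 50 bases after a start site, and 37 of the 48 genes matched by symbol with 41 windows. Ctsb, Ctsh, Ctsw, Ctse, Atp6v1b2, Atp6v1c1, Atp6v1g1, Atp6v1h, Atp6v0a2, Atp6v0d2 and Atp6ap1l are named only. The first set shows the core of the lysosomal gene motif bound by the transcription factor TFEB, CACGTG, in capitals. This hexamer reads the same on both strands.
Ctsf, chr19:4855074-4855103, strand +: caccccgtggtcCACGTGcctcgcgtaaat
Ctsl, chr13:64370739-64370768, strand -: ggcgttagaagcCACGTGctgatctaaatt
Ctsd, chr7:142388055-142388077, strand -: tccccCACGTGacctgtatccag
Ctsd, chr7:142387908-142387937, strand -: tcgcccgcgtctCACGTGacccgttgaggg
Ctsa, chr2:164833749-164833778, strand +: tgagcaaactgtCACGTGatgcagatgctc
Atp6v1a, chr16:44139373-44139402, strand -: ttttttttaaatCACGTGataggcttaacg
Atp6v0b, chr4:117887348-117887377, strand -: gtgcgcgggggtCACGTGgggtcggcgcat
Atp6v0d1, chr8:105566050-105566079, strand -: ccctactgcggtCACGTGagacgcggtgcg
Atp6v0e, chr17:26676387-26676416, strand +: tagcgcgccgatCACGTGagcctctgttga

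CACGTG lay in 5 of 20 cathepsin windows (25%) and in 4 of 21 pump windows (19%), against 2349 of all 32851 windows (7.15%). Those windows belong to 27025 symbols and were not limited to protein-coding genes. The motif itself holds the dinucleotide CG (CpG). Its median number per window was 17 in pump windows and 4 in cathepsin windows, against 7 over all windows. The shares were not matched for CpG content. The cathepsin genes were Ctsd, Ctsa, Ctsf, Ctsl and Ctsll3. In Ctsd, the main lysosomal aspartic protease, the motif began 245 and 98 bases before the RefSeq start. In Ctsa, a serine carboxypeptidase that protects lysosomal galactosidase and sialidase, it began 12 bases before the second of 2 RefSeq starts and again at base 6 after it. That RefSeq start lay 900 bases inside the annotated gene, and both copies fell within annotated exon sequence, as did the Ctsd copy at 98 bases. In Ctsf, a cysteine protease with a long propeptide, it began 79 bases before the start, and in the endopeptidase gene Ctsl 236 bases before it. Ctsll3, a cysteine cathepsin gene on chromosome 13, held it 13 bases before its start, in a stretch printed with its neighbours in the next set. Atp6v0b and Ctsa hold a second copy close by, and 1 copy of each is printed. Outside the chromosome 13 cluster described next, 4 of 11 cathepsin windows (36.4%) held the motif.

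Among pump genes the matches fell in 3 of 9 V0 windows (33.3%) and 1 of 10 V1 windows (10.0%). The V0 windows came from 7 genes, with 3 windows for Atp6v0c, and the V1 windows from 9 genes. By gene the shares were 42.9% for V0 and 11.1% for V1, against 8.09% of all symbols. Atp6v0b, which codes for the proteolipid subunit c'' of the proton-carrying ring, had CACGTG at 36 and 18 bases before its start. Atp6v0d1, for the subunit d that sits on that ring, had it from 3 bases before the start, and Atp6v0e, for the small membrane subunit e, from base 4 after the start. Atp6v1a, the catalytic subunit A that binds ATP, had it 131 bases before the RefSeq start. That start lay 446 bases inside the annotated gene, so the motif fell 315 bases downstream of the annotated start, outside its annotated exons. With the flanking base added, TCACGTG, searched on both strands and overlapping CACGTG by construction, remained in all 4 pump genes but in 2 of the 5 cathepsin genes, Ctsd and Ctsa, against 3.77% of all windows. The longer GTCACGTG was found in Ctsd, Ctsa, Atp6v0b and Atp6v0d1, against 2.25% of all windows. A match is a run of letters and not a measured binding site, and a window without one says nothing about the factor.

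The second set shows all 9 genes of the chromosome 13 cathepsin cluster, placed side by side to show which bases they share. Each stretch of 30 bases begins 3 bases before the first marked motif. Capitals mark TTTAAA, the TATA-box letters TATAAA on either strand and, where present, GTTGCTGG.
Ctsll3, chr13:60802846-60802875, strand -: ggaTATAAAgtctggatccacgtgcagctg
Ctsj, chr13:61005928-61005957, strand -: ggaTTTAAAgtcagaatgaggtGTTGCTGG
Ctsq, chr13:61040628-61040657, strand -: agaTTTATAgctgtgccagaccctgaacct
Ctsr, chr13:61164207-61164236, strand -: ggaTTTAAAgccagagagaggtGTTGCTGG
Cts6, chr13:61203414-61203443, strand -: ggaTTTAAAgcctgagtgaggggttgccga
Cts8, chr13:61255351-61255380, strand -: gtaTTTAAAgctcaagtaaaatacagcagg
Cts7, chr13:61358200-61358229, strand -: gtaTTTAAActcatagtgaggtGTTGCTGG
Ctsm, chr13:61541851-61541880, strand -: caaTTTAAAaccTTTATAAAgagttgttgg
Cts3, chr13:61570137-61570166, strand -: caaTTTAAAggcTTTATAAAgagttgttgg

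TTTAAA lay in 7 of these 9 windows (77.8%), between 29 and 48 bases before the RefSeq start. In Ctsr that start lay 68 bases inside the annotated gene, so its whole printed stretch falls within the annotated gene. TTTAAA lay in 13.2% of all windows and in 2 of 11 cathepsin windows outside the cluster (18.2%). Ctss, outside the cluster, had it 28 bases before the start. Ctsll3 had TATAAA in place of TTTAAA, 28 bases before the start. Ctsm and Cts3 had TATAAA as well as TTTAAA, from 27 and 25 bases before the start. Ctsq had neither motif at such a distance from its RefSeq start, which lay 34 bases inside the annotated gene. Its printed stretch begins with TATAAA read on the other strand, 57 bases before the RefSeq start and nearer to the annotated start. On either strand, TATAAA lay in 4 of the 9 cluster windows (44.4%), against 13.6% of all windows. GTTGCTGG followed TTTAAA at the same spacing in Ctsj, Ctsr and Cts7, and 1.78% of all windows held it. These last motifs were picked from the cluster's own windows, so their high share there was built in by the choice. Position by position, Ctsm and Cts3 had 28 of 30 bases in common and Ctsj and Ctsr 27, while the 36 pairs ranged from 8 to 28 with a median of 17. Ctsq shared 8 to 12 bases with each of the other 8 genes and Ctsll3 11 to 15, so likeness was not a feature of all 9 stretches. Because the stretches were lined up on the marked motif, its own bases are part of these counts.

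The cluster windows also stood at the low end for CpG, the dinucleotide that is dense in promoters of broadly active genes. The 9 cluster windows had 0 to 3 CpG each, with a median of 1. The 7 windows of the other cysteine cathepsins had 2 to 19 with a median of 10, and Ctsd had 33. V1 windows had a median of 12.5 (2 to 22, n = 10) and V0 windows a median of 20 (1 to 30, n = 9), against 7 over all windows with quartiles of 3 and 20. The V0 windows include 3 of Atp6v0c, with 18, 30 and 21 CpG. Low pump values belonged to Atp6v0a4 with 1, Atp6v1g3 with 2 and Atp6v1b1 with 3, isoform genes known from the kidney in mouse. Atp6v0b had 28 CpG and Atp6v0d1 had 26.

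**Figure D1:**
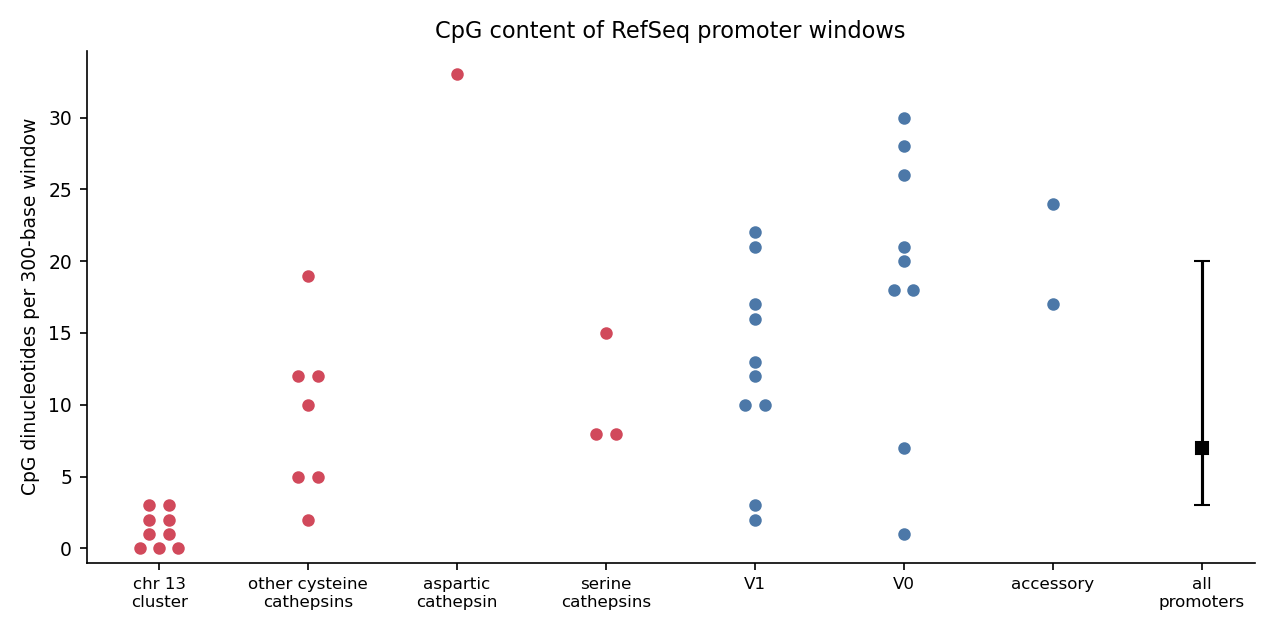
Number of CpG dinucleotides in each 300-base RefSeq promoter window (vertical axis), by gene group (horizontal axis). Each dot is a window, red for cathepsins and blue for pump genes, and the black square with bars gives the median of 7 and the quartiles of 3 and 20 over all windows. All 9 cluster windows lie at or below 3, and most V0 windows lie at 18 or above.

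The 10 cysteine cathepsins outside the cluster were spread over 7 chromosomes, while 9 more lay side by side on chromosome 13. The cluster ran from Ctsll3 to Cts3, chr13:60798250-61570127 in mm10, a span of 772 kb. It held 14 protein-coding genes, all on the minus strand, of which 9 were the cathepsin genes Ctsll3, Ctsj, Ctsq, Ctsr, Cts6, Cts8, Cts7, Ctsm and Cts3. Apart from Ctsll3, these genes are known from the mouse placenta. Gaps between neighbours were 22.8 kb at the narrowest, from Ctsm to Cts3, and 197.4 kb at the widest, from Ctsll3 to Ctsj. The widest gap held 5 other coding genes, namely 4930486L24Rik, Ctla2b, Tpbpb, Ctla2a and Tpbpa. Cts8-ps, an added model from outside Ensembl, lay between Cts8 and Cts7. Ctsl lay 2793 kb beyond Cts3 on the same strand, at chr13:64363214-64370306.

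**Figure D2:**
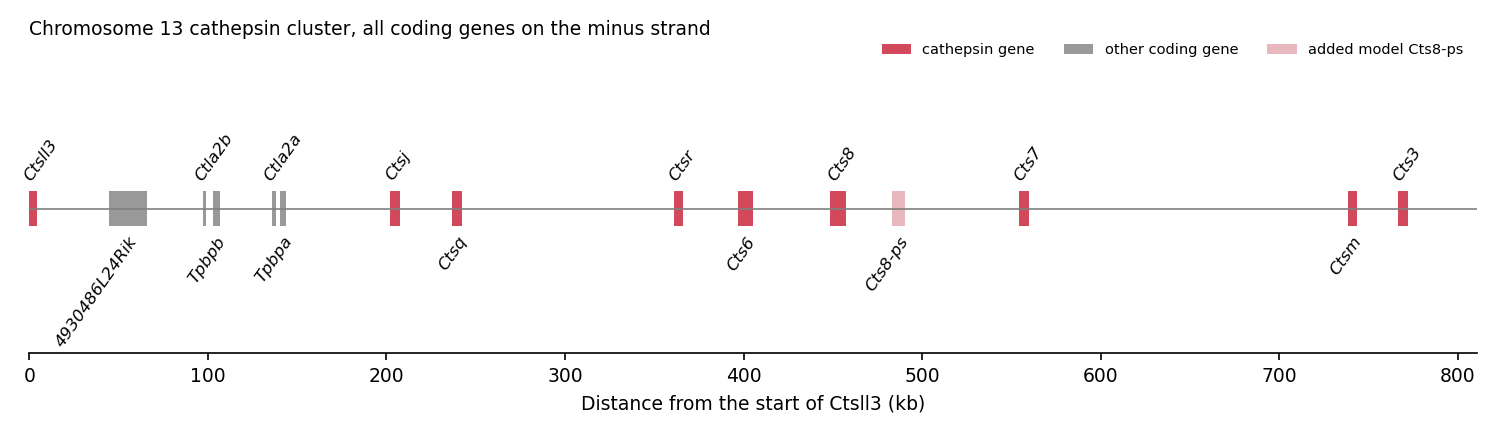
Map of the chromosome 13 cluster, with distance from the start of Ctsll3 in kb on the horizontal axis. Red blocks are the 9 cathepsin genes, grey blocks the 5 other coding genes and the pale block the added model Cts8-ps, drawn to scale. Ctsll3 stands apart by 197.4 kb and the remaining 8 cathepsin genes follow without another coding gene between them.

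On chromosome 3, Ctsk and Ctss stood next to each other on the plus strand. Ctsk, the collagen-degrading protease of osteoclasts, lay at chr3:95499256-95509362, and Ctss at chr3:95526786-95556403, with 17.4 kb and 0 coding genes between them. Ctsf and the lymphocyte protease gene Ctsw both lay on chromosome 19, at chr19:4855129-4860912 and chr19:5465240-5468498.

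The cathepsin L type of gene had a fixed layout. Ctsl, Ctsk and all 9 cluster genes had 7 coding exons whose introns followed the phase order 0, 0, 0, 0, 1, 2, where the phase is the number of codon bases left before the intron. Over all protein-coding genes with 7 coding exons, 17 of 1146 (1.48%) had that order. The other 6 were 4930486L24Rik and BC051665, which lie in or next to the cluster and share exon lengths with it, and Dkk3, Nkain1, Nkain2 and Nkain4, which shared under 4 of them with Ctsl. The commonest exon lengths were 126, 123, 147, 225, 163, 118 and 97 bases. Exons 1, 2 and 5 had the commonest length in 10 of the 11 genes each, and exon 3 varied most, from 141 to 180 bases.

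Ctsr and Cts6 had the same length in all 7 coding exons, as did Cts8 and Ctsm, and 4930486L24Rik had the lengths of Cts8 and Ctsm. Ctsl shared 6 of 7 lengths with Ctsj, Cts8 and Ctsm, and 1 with Ctsk. Ctsq carried the 180-base exon 3 and coded for 343 codons, against 331 to 334 in the other 8 cluster genes. Equal lengths do not mean equal sequence, and protein sequences were not compared here. The pair with the most alike printed stretches, Ctsm and Cts3, had 5 of 7 lengths in common.

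**Figure D3:**
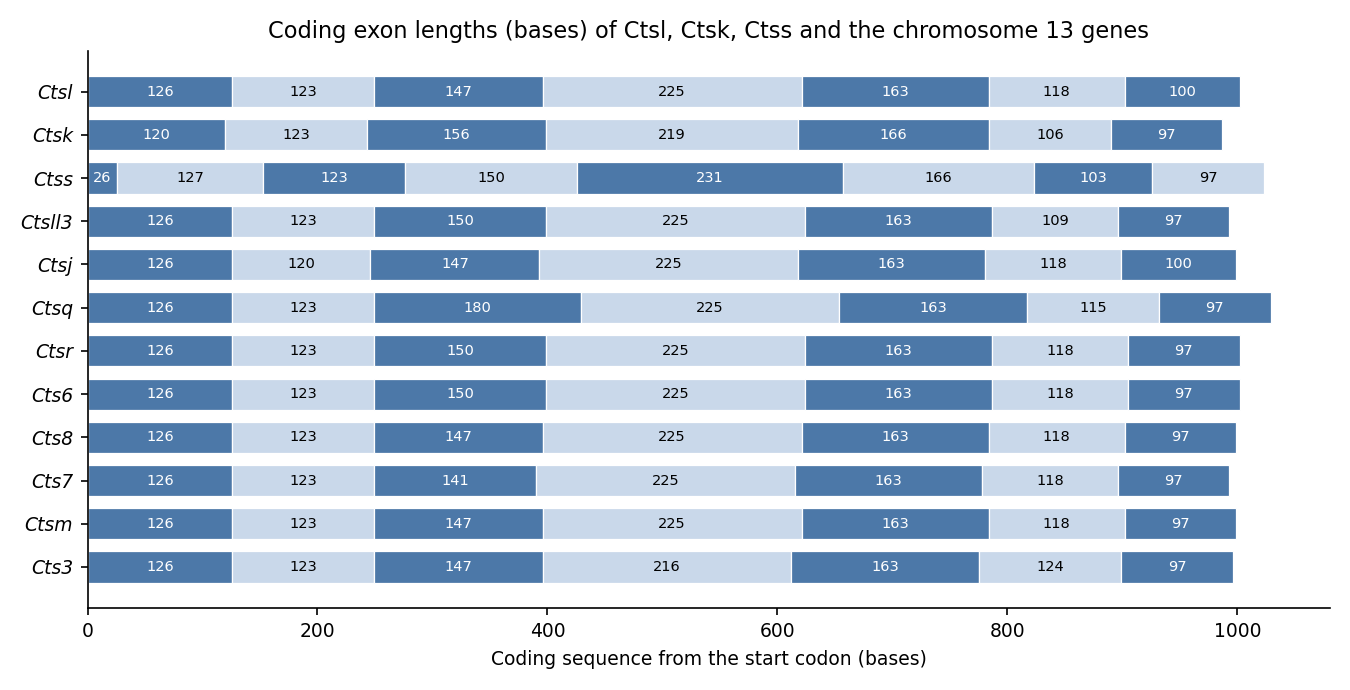
Coding exon lengths of Ctsl, Ctsk, Ctss and the 9 cluster genes, laid end to end from the start codon (bases on the horizontal axis, 1 gene per line, alternating shades for successive exons, lengths printed). Ctsq is longer through its 180-base exon 3, and Ctss has an extra intron within the first part, after 26 bases.

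Ctss differed by its start. It had 8 coding exons, the first 26 bases and the second 127, together 153 bases where Ctsl has a first exon of 126 bases. Its remaining introns followed the same phase order as those of Ctsl, and 3 exons matched Ctsk in length and phase. The other cysteine cathepsins had layouts of their own. Ctsb, an endopeptidase that also removes dipeptides, had 9 coding exons and 339 codons, and the dipeptidyl peptidase gene Ctsc had 7 exons and 462 codons. The aminopeptidase gene Ctsh had 12 and 333, Ctso 8 and 312, and the carboxypeptidase gene Ctsz 6 and 306. Ctsb, Ctsc, Ctsh, Ctso and Ctsz each shared under 2 coding exons with every other cathepsin gene. Ctsf had 14 coding exons and 462 codons and Ctsw 10 and 371, with 5 shared between them. The phase order of Ctsf was held by it alone among 550 genes with 14 coding exons, and that of Ctsw alone among 886 with 10. How often a coding gene with so many exons has an order of its own was not counted, here or for the pump genes below. Such an order is therefore not given as particular to these genes.

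The aspartic cathepsins resembled the pepsin family in layout. Ctsd and the endosomal protease gene Ctse each had 9 coding exons in the phase order 2, 0, 1, 0, 2, 2, 0, 0, found in 7 of 1046 genes with 9 coding exons (0.669%). The other 5 were Napsa, Pga5, Pgc, Cym and Ren1, all genes of aspartic proteases. Ctsd and Ctse shared 3 exon lengths with each other, while Napsa shared 5 with Ctsd and 4 with Ctse. Of the serine cathepsins, Ctsa had 15 coding exons and 492 codons. Ctsg, a granule protease of neutrophils, had 5 and 261, and it shared 3 of its 5 coding exons with the mast cell protease and granzyme genes Cma2, Gzmb, Mcpt1, Mcpt2, Mcpt4, Mcpt8 and Mcpt9.

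Over all 23 cathepsin genes the median span was 8160 bases, against 16345 bases over all protein-coding genes, but the cluster weighed on that value. The 9 cluster genes had a median span of 5605 bases and the 14 cathepsin genes outside it 14219 bases. The median 3′ untranslated region was 268 bases in the cluster and 503.5 bases outside it, against 608.5 over all protein-coding genes. Coding lengths had medians of 333 codons in the cluster and 340 outside it, against 395. Ctsb stood out with 3590 bases of 3′ untranslated region, longer than in 94.6% of coding genes, and Ctso had 2465. The longest gene was Ctse at 37200 bases, with an intron of 23318 bases. Ctsg, at 2694 bases, was the shortest.

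The pump genes were more varied in size and lay on 12 chromosomes, with 5 on chromosome 6 and 4 on chromosome 17. Their median span was 23249 bases, and their coding lengths ran from 81 codons in the subunit e genes to 856 in Atp6v0a2, with a median of 350. The V1 genes had a median of 247 codons (118 to 617, n = 13) and the V0 genes a median of 350 (81 to 856, n = 9). The longest span was that of Atp6v0a2 at 95880 bases, of which 65392 were 1 intron. Next came Atp6v1h, for the regulatory subunit H, at 92512 bases. Atp6v1f, for the small stalk subunit F, had 119 codons in 2 coding exons and was the shortest at 2795 bases.

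In the V1 sector, most subunits with several genes kept their exon layout. The catalytic head alternates subunits A and B. Atp6v1a had 617 codons in 14 coding exons. Atp6v1b1 and Atp6v1b2, for subunit B, had 513 and 511 codons in 14 coding exons each, with the same phase order and 12 equal lengths, and no other gene with 14 coding exons had that order. The stalk subunit G genes Atp6v1g1, Atp6v1g2 and Atp6v1g3 had coding exons of equal length, 82, 101 and 171 bases, and 118 codons. Their sequences were not compared. Their phase order, 1 then 0, is common, held by 278 of 1496 genes with 3 coding exons (18.6%). Atp6v1c1 and Atp6v1c2, for subunit C, which joins the sectors, shared 9 exons, of 12 in Atp6v1c1 and 14 in Atp6v1c2. Atp6v1c2 had extra coding exons of 30 and 138 bases.

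Subunit E broke this pattern. Atp6v1e1 had 9 coding exons over 27441 bases, while Atp6v1e2 had its whole coding sequence of 678 bases in 1 exon of a 3779-base gene. Both coded for 226 codons. The remaining V1 genes with no second copy were Atp6v1d, for the central stalk subunit D, with 247 codons in 9 coding exons, and Atp6v1h with 483 codons in 13.

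In the V0 sector, the subunit a genes, whose isoforms direct the pump to different membranes, had the longest coding sequences. Atp6v0a1, Atp6v0a2 and Atp6v0a4 had 839, 856 and 833 codons and the same phase order over 20 coding exons, and no other gene of the 263 with 20 coding exons had it. Atp6v0a1 and Atp6v0a4 shared 15 exon lengths, Atp6v0a1 and Atp6v0a2 12, and Atp6v0a2 and Atp6v0a4 10. Tcirg1, the subunit a isoform known from osteoclasts, lies outside the name rule and had 19 coding exons. Its phase order equalled theirs once intron 3 was left out. Its exon 3 had 221 bases, where exons 3 and 4 summed to 227 bases in Atp6v0a1, 236 in Atp6v0a2 and 221 in Atp6v0a4. Because introns 3 and 4 have the same phase in the 3 genes, leaving out intron 4 gave the same order, but exon 3 of Tcirg1 then stood against 98, 98 and 95 bases.

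**Figure D4:**
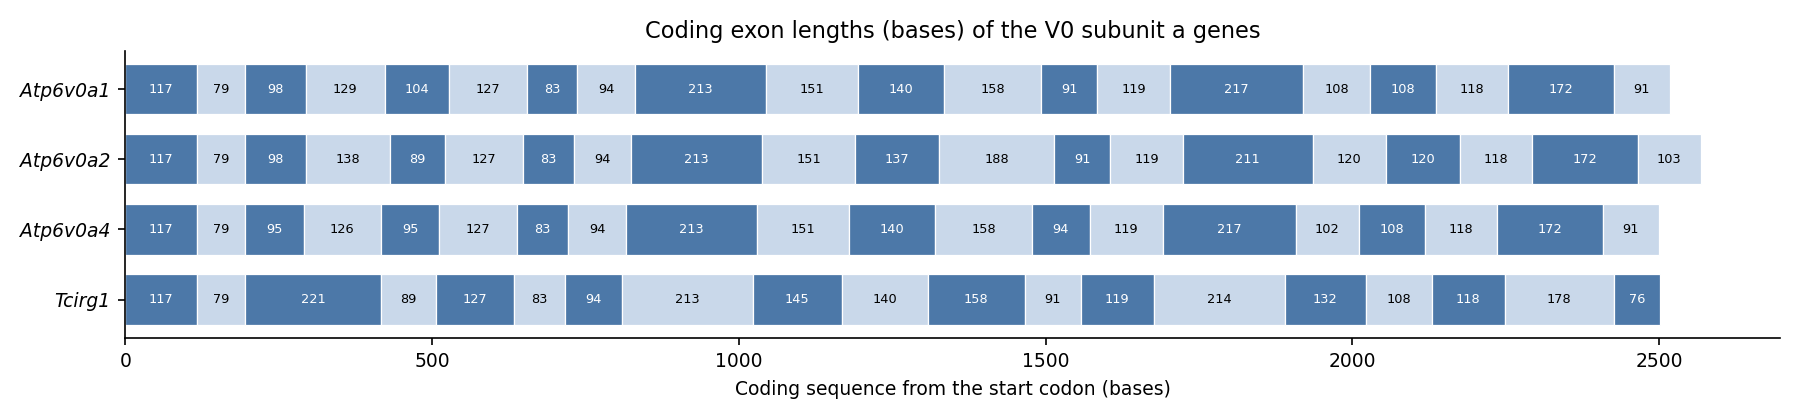
Coding exon lengths of Atp6v0a1, Atp6v0a2, Atp6v0a4 and Tcirg1, laid end to end from the start codon (bases on the horizontal axis, 1 gene per line, alternating shades for successive exons). Tcirg1 has a 221-base exon 3 where the other genes have a pair of shorter ones.

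Atp6v0d1 and Atp6v0d2, for subunit d, had 351 and 350 codons and shared 7 of 8 coding exon lengths, the seventh being 78 bases in Atp6v0d1 and 75 in Atp6v0d2. Atp6v0e and Atp6v0e2 had coding exons of equal length, 104, 48 and 91 bases, and 81 codons. The proteolipid genes Atp6v0b and Atp6v0c, for subunits c'' and c of the rotating ring, had 205 codons in 8 coding exons and 155 in 3, and shared under 2. Among the accessory genes, Atp6ap1 had 463 codons and its relative Atp6ap1l 336. Atp6ap2, the prorenin receptor, had 350.

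The annotation gave 1 transcript to 15 of 23 cathepsin genes (65.2%) and to 8 of 25 pump genes (32%), against 39% of all protein-coding genes. Transcripts of manual curation (source havana) were present for 11 cathepsin genes (47.8%) and 18 pump genes (72%), against 75.4%. The cathepsin shares differed between the cluster and the rest. In the cluster 8 of 9 genes had 1 transcript (88.9%) and 2 had one of manual curation (22.2%), while of the 14 cathepsin genes outside it 7 had 1 transcript (50%) and 9 had one of manual curation (64.3%). None of the 12 cathepsin genes without one had more than 1 transcript. Among genes without manual curation, 86.7% of all protein-coding genes had 1 transcript and 0 of 5451 had a retained-intron transcript, an RNA in which an intron is kept. Retained-intron transcripts were listed for 7 cathepsin genes (30.4%) and 10 pump genes (40%), against 30% of all. By position, the cathepsin genes among these were 1 of 9 in the cluster (11.1%) and 6 of 14 outside it (42.9%). Among manually curated genes they were listed for 7 of 11 cathepsin genes (63.6%) and 10 of 18 pump genes (55.6%), against 39.7%.

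Ctsa had the most transcripts of the group, 17, and 98.8% of coding genes had fewer. Of these, 7 were protein-coding and 7 kept an intron. Ctsh had 11 transcripts, with 6 that kept an intron. Among pump genes, Atp6v0a1 and Atp6ap1 had 10 each and Atp6v0b 9. Atp6v1b2 had 6, of which 5 kept an intron. The cluster genes had 1 transcript each, apart from Ctsq, which had 2.

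**Figure D5:**
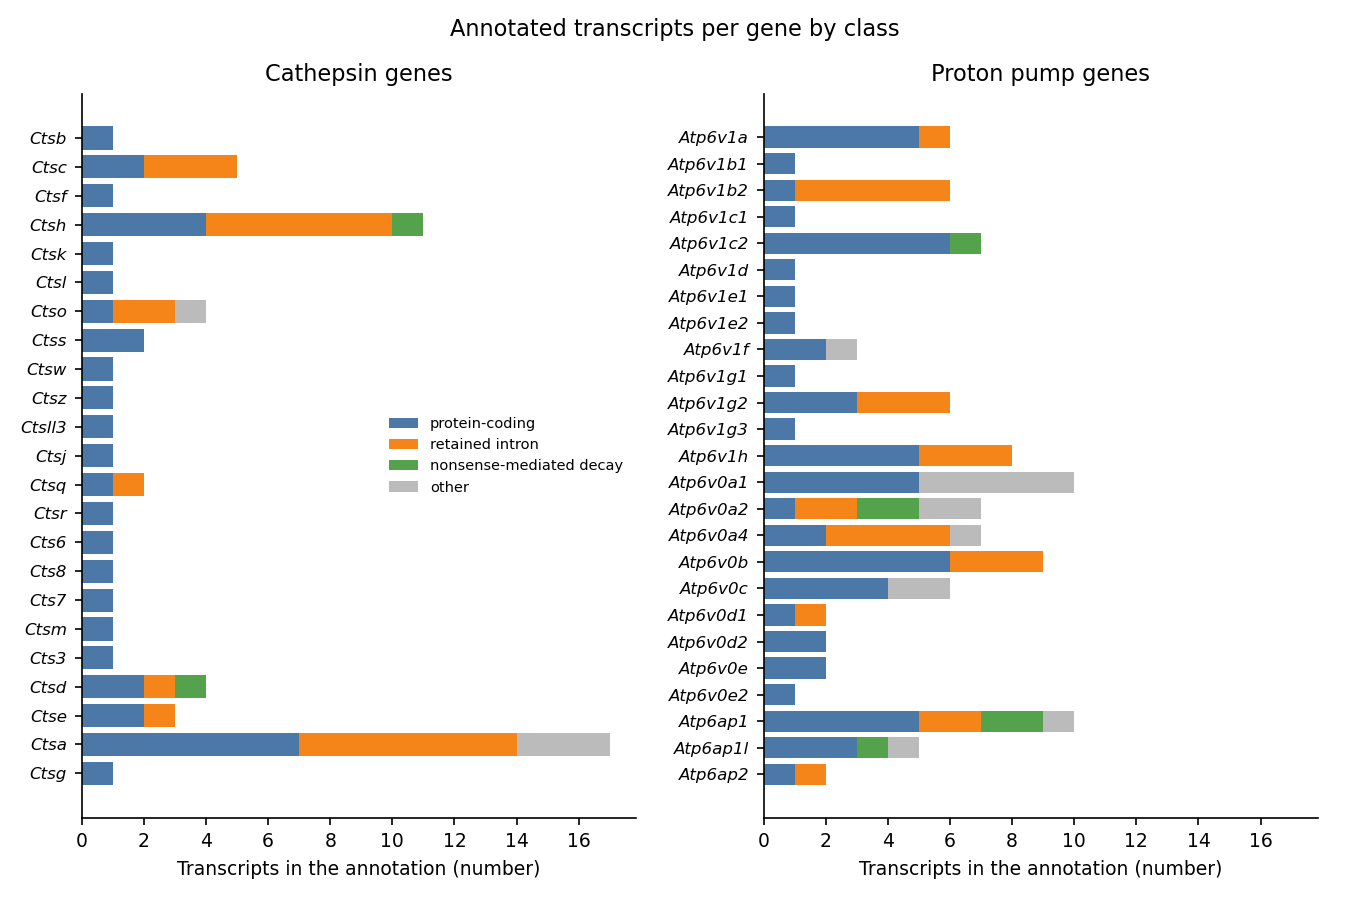
Number of annotated transcripts (horizontal axis) of each cathepsin gene on the left and each pump gene on the right, 1 gene per line, coloured by transcript class. Ctsa with 17 and Ctsh with 11 stand above the other cathepsin genes, of which 15 have 1.

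Alternative coding forms followed from whole exons in 5 of the 13 members with at least 2 complete coding transcripts (38.5%), against 25.2% of all such genes. These 5 genes held 7 skipped coding exons, of which 6 had a length divisible by 3 (85.7%), against 81.6% of 3181 over all genes. In Ctse a 99-base exon separated forms of 397 and 364 codons. Atp6v1h, with skipped exons of 54 and 126 bases, had forms of 483, 465 and 441 codons, and a 30-base exon of Atp6v1c2 belonged to a form of 437 codons. Atp6v0a1 had 2 separate 18-base exons, each in a form of 838 codons, beside a form of 832 without them. The exception was a 49-base exon of Atp6v0b, which had forms of 205 and 158 codons. Other members with several complete coding forms were Ctsa at 492 and 474 codons, Ctss at 341 and 340, Atp6ap1 at 463 and 415 and Atp6v1g2 at 118, 93 and 77.

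Reads that fall where exons of different genes overlap cannot be placed on a single gene by position alone. On the same strand, 1 of 23 cathepsin genes (4.35%) and 3 of 25 pump genes (12%) shared exon bases with another model, against 13.3% of all protein-coding genes. Ctsd shared 163 bases, 6.47% of its exon bases, with Ifitm10 and with an added model. Atp6v0c shared 927 bases (27.4%) with the coding model RP23-27H19.7. Atp6v0a2 shared 1883 bases (28.0%) with an added model of the same name, which overlapped 10 of its merged exons. Atp6v0a4 shared 259 bases (5.21%) with D630045J12Rik. No member had over 50% of its exon bases shared on its strand, against 7.42% of all protein-coding genes.

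Counting both strands, 4 cathepsin genes (17.4%) and 8 pump genes (32%) shared exon bases, against 31.9%. The 3 cathepsin genes added were Ctsb with 767 bases under Fdft1, Ctsz with 10 under Nelfcd, and Ctsa with 495 under Pltp and 324 under Neurl2. The largest such overlap among pump genes was 911 bases of Atp6v1b2 under an added model. The sources used here do not give whether the libraries keep strand, and the effect of these overlaps on read counts was not measured. Coding genes that start within 1000 bases of each other and run apart were found for 2 pump genes (8.0%) and 0 cathepsin genes, against 6.89% of the coding genes placed on assembled chromosomes. Atp6v1a started 124 bases from Naa50, a subunit of an N-terminal acetyltransferase, and Atp6v1d 180 bases from Eif2s1, the alpha subunit of translation initiation factor eIF2.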

How the data were processed

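The deposited file is a gene annotation in GTF format on build mm10. Its start and end positions are the authors' and are counted from 1. TopHat2 2.1.1 is named per the submitters' processing notes, while the assembly and use of the annotation are not given in the sources at hand. The file has 0 columns of values per sample, so depth, precision of counts, and tests between LPS and untreated libraries were not analysed here.

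Members, gene lists and results to describe were chosen with earlier results of these data known. All members are named, in the order of their roles, and other genes only where a result turns on them. Gene models were read with Python 3.11.15, pandas 2.3.3 and numpy 2.4.6, and figures drawn with matplotlib 3.10.9. Models of source ensembl, havana, ensembl_havana, insdc or mirbase were taken as Ensembl's and all others as added. A gene's coding length, exons and untranslated regions came from its transcript with start and stop codon and the longest coding sequence. Coding exons of 2 genes were called shared when length and starting phase were equal, in the same order, and outside the families only genes within 3 coding exons were compared. Shared exon bases were counted over merged exons. The 5 counting functions were tested on simulated gene models and were exact in every case. Promoter windows of 300 bases are RefSeq's (GRCm38.p6). Protein identities were not computed here. Alternatives are given in the closing section.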

Additional observations from a re-analysis of the deposited data

How the results depend on the processing

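Of 24 alternatives run on 11 results, 18 were called the same. For a count this meant a move of no more than 1.5 times. For a median length it meant a move below the standard deviation across the family's genes. The pump median of the 5′ untranslated length, for example, went from 135 to 145 bases. Leaving out genes of automatic source alone lowered the cathepsin genes to 11, by construction. Asking for over 50% of exon bases left 0 cathepsin genes and 0 pump genes with sharing, and counting either strand gave 4 and 8. TCACGTG in place of CACGTG lowered the cathepsin windows to 2. The reference transcript of the exon layout was varied after the data had been seen, and the count of 11 genes with the 7-exon order did not move. No paired analysis was possible because the annotation carries no library values. The comparisons of LPS with untreated libraries were therefore not run, and alternatives on protein identity were not run for want of protein sequences here. Manual curation limits what can be read from transcript numbers, since unreviewed genes rarely have more than 1.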

Other observations

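Names changed over time at the edge of the families. Gm9047, a protein-coding gene on chromosome 6, carries the current symbol Atp6v1fnb, and the processed pseudogene Gm15487 on the same chromosome carries Atp6v0c-ps2, which the annotation also lists as an added model. Gm9047 was not counted because the annotation's own names decided membership. Gm15487 would be left out under either name, since only protein-coding genes were taken. With added models counted, the pump models would number 27, through a second model of Atp6v0a2 and the model Atp6v0c-ps2. Neither of these names a further pump gene, and the cathepsin models stay at 23.

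RefSeq and the annotation placed some starts far apart. The RefSeq start of Atp6v1c2 lay 4629 bases inside the annotated gene and the farther RefSeq start of Atp6v1g2 2936 bases inside it. Among genes whose CACGTG copies are printed, the start lay 900 bases inside for the second entry of Ctsa and 446 bases inside for Atp6v1a. For Ctsl it lay 214 bases before the annotated start, and for Ctsd 211 bases after it, so the Ctsd window falls partly on annotated exon sequence.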
